A study of Caenorhabditis elegans with 2 samples.

Results

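The LIM homeodomain genes of Caenorhabditis elegans are a family of 7 transcription factor genes, lim-6, lim-4, lim-7, lin-11, mec-3, ttx-3 and ceh-14, out of 19973 protein-coding genes annotated on the nuclear chromosomes. They were taken as a family by name, not by any measured value, though with earlier results of these data known. For each gene, every listed region that overlapped a window from 5 kb upstream of the gene to 1 kb past its end was collected from chromatin immunoprecipitation and sequencing (ChIP-seq) of LIM-6 itself. The windows held 21 of the 25887 regions in the list pooled over both libraries, 27 of 21953 in the replicate 1 list, 16 of 27731 in the replicate 2 list and 1 of the 570 reproducible peaks. The pooled and library lists are relaxed and hold background as well as peaks, so a count of regions is not a count of bound sites.

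The material was whole late embryos, hermaphrodite, collected 5 hours after synchronization by egg bleaching. The strain, OP388, has the genotype unc-119(ed3) III; wgIs388, in which wgIs388 is a stable insertion that expresses LIM-6 with a GFP and FLAG tag at its C-terminus, and precipitation used an antibody to GFP. The 2 libraries are biological replicates 1 and 2 of this 1 group, so no treated and untreated groups exist and nothing was tested between conditions. The sources used here do not give the promoter, extent, copy number or position of the insertion, and reads from the transgene and from the native lim-6 locus cannot be told apart. Neuron types differ in which of these genes they use, and a ChIP of whole embryos does not say in which cells a region was bound. No control library was analysed here, read depth per library is unknown, and the library lists differ in length.

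A LIM homeodomain protein carries a pair of LIM domains, zinc-binding modules that contact other proteins such as the cofactor LDB-1, ahead of a homeodomain that binds AT-rich DNA with a TAATTA-like core. In worms these proteins fix the identities of single neuron classes. lim-6, the worm member of the Lmx class, acts in GABAergic neurons and in the left-right asymmetry of the ASE taste neurons. lim-4 acts in the AWB olfactory neurons, mec-3 in the touch receptor neurons together with the POU factor UNC-86, ttx-3 in the AIY interneurons together with CEH-10, and ceh-14, of the Lhx3 class, in the AFD thermosensory neurons. lin-11 is known for its roles in vulval lineages and several neurons, and lim-7, the Islet-class member, for expression in the gonadal sheath.

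lim-6 stood apart from its 6 paralogues in number, density and signal of the regions. Its window held 10 pooled regions in 13.0 kb, against 11 in the 69.35 kb of all 6 paralogue windows, or 0.769 against 0.159 regions per kb. Single paralogues had 3 pooled regions at lim-4, 1 at lim-7, 2 at lin-11, 0 at mec-3, 1 at ttx-3 and 4 at ceh-14. The density at lim-6 was 2.11 times that of ceh-14, the highest paralogue, and 11.7 times that of lim-7, the lowest with any region. These ratios hold for the pooled list: in replicate 1 alone lim-6 had 1.56 times the density of lim-4, the highest there, 2.34 times that of lim-7 and 6.72 times that of ttx-3, the lowest. In replicate 2 alone it had 2.81 times that of ceh-14, the highest, and 11.7 times that of lim-7. Regions covered 30.9% of the lim-6 window and from 0 to 15.5% of the paralogue windows.

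The 1 member with a reproducible peak was lim-6. Across all protein-coding genes, 6.38% had a reproducible peak in a window of the same kind, and 2.2% of all pooled regions were reproducible peaks, so the absence of one at 6 paralogues is what most genes show. Pooled density at lim-6 exceeded that of 97.6% of all genes, for which the median was 0.243 regions per kb. By the same measure ceh-14 exceeded 71.0% and lim-4 62.0% of genes, whereas lin-11 was above 39.4%, ttx-3 above 20.9% and lim-7 above 19.5%. The standing of paralogues depended on the library. In replicate 1 alone, lim-4 exceeded 81.8% of genes, ceh-14 78.3%, lin-11 71.5%, lim-7 61.6%, mec-3 52.9% and ttx-3 22.1%. In replicate 2 alone, ceh-14 exceeded 53.4%, lim-4 18.3%, lin-11 16.7%, lim-7 16.4%, and ttx-3 and mec-3 had no region. lim-6 exceeded 96.5% in replicate 1 and 97.2% in replicate 2. mec-3 was among the 19.3% of all genes without a pooled region. By highest pooled signal in the window, lim-6 exceeded 97.9% of genes, ceh-14 76.4%, lim-7 72.4%, lim-4 52.9%, lin-11 46.3% and ttx-3 44.4%. These signal percentiles were not adjusted for window length, whose median over all genes was 8.03 kb. Of the 5131 genes with a window as long as those of the family, 9.05 to 15.24 kb, 98.8% had fewer pooled regions than lim-6, 10.47% had none, and the median was 3. Of these, 8.81% had a reproducible peak. The paralogues lim-4, ttx-3 and ceh-14 lie on chromosome X like lim-6.

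**Figure D1:**
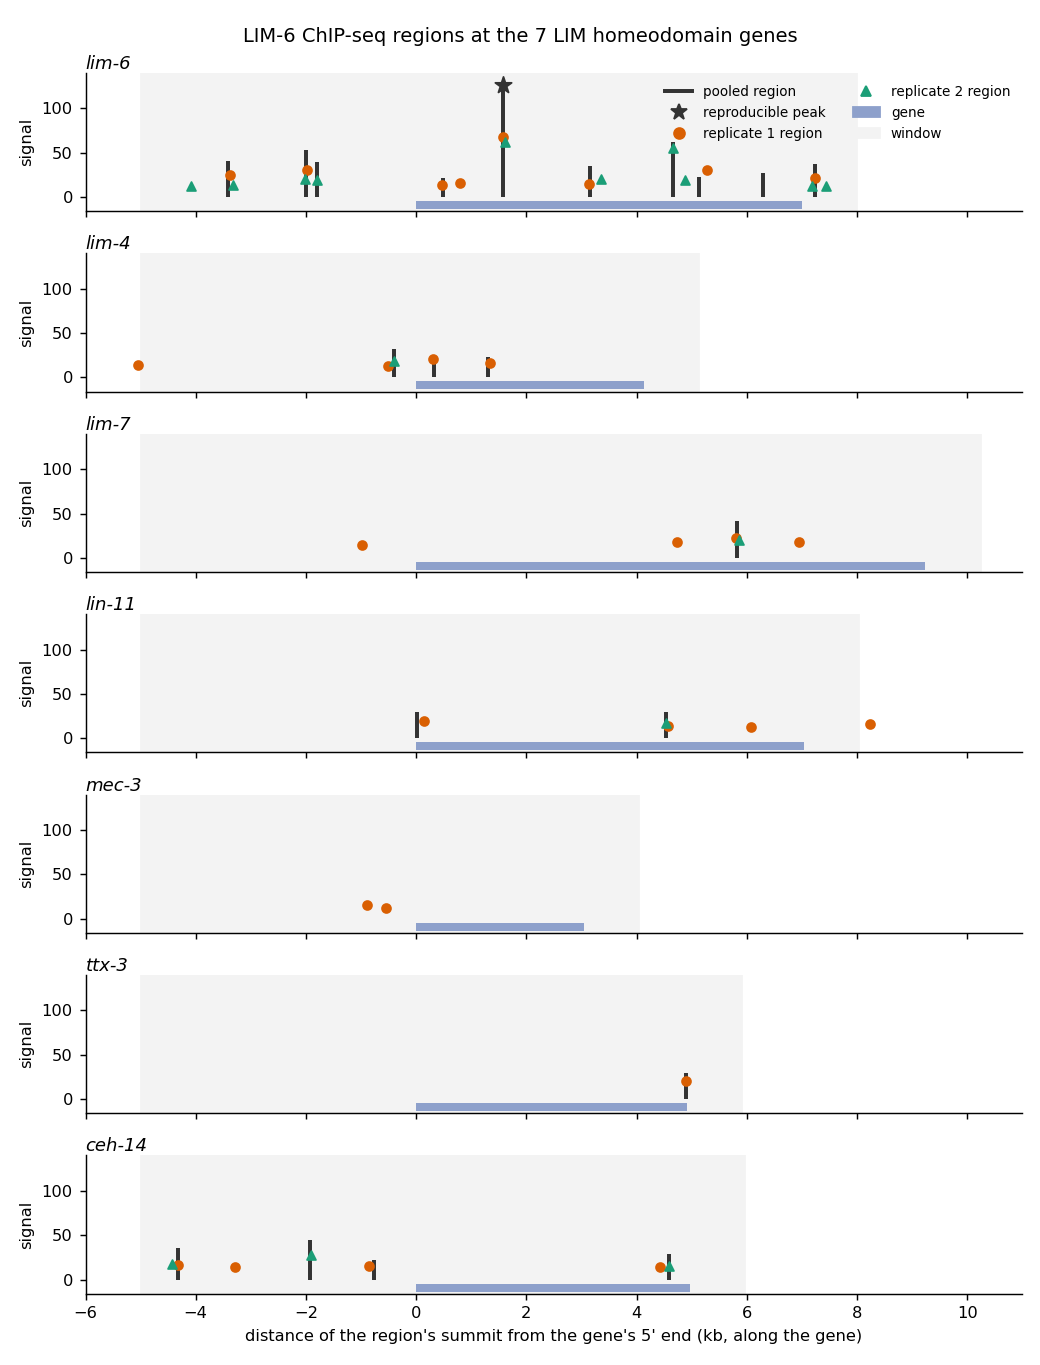
Regions at the 7 genes, with the distance of each summit from the gene's 5′ end in kb along the gene on the x axis and the signal given by the authors on the y axis. Lines are pooled regions, the star is the reproducible peak, circles and triangles are regions of replicates 1 and 2, grey marks the window and the blue bar the gene. The lim-6 panel has 10 lines, 1 of them at a signal of 127, and no paralogue line passes 44.8.

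The sequence of the upper end of the lim-6 peak and of 4 further regions is shown next, because the results turn on them: the reproducible peak, the region of lim-6 that was high in 1 library, the lim-6 region with a TAATTA, and the highest regions of ceh-14 and lim-4. Bases are from the RefSeq copy of the WBcel235 assembly, which is ce11, 5′ to 3′ on the strand of the gene, and capitals mark TAATTA or TAATGA read on either strand. Of the reproducible peak only the 95 bases ahead of the annotated UTR are given.
lim-6 peak, chrX:1073813-1073907, plus strand: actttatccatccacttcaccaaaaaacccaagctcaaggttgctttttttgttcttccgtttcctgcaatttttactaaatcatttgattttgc
lim-6 intron, chrX:1077018-1077218, plus strand: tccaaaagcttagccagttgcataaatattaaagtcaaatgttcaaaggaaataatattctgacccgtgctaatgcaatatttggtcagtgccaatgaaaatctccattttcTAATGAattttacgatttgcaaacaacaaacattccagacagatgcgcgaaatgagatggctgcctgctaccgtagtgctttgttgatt
lim-6 upstream, chrX:1070346-1070546, plus strand: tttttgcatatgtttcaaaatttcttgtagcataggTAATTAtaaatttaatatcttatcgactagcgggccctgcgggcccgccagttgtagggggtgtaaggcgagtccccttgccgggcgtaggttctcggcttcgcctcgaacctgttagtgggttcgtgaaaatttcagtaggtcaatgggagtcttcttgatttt
ceh-14 upstream, chrX:7534553-7534753, minus strand: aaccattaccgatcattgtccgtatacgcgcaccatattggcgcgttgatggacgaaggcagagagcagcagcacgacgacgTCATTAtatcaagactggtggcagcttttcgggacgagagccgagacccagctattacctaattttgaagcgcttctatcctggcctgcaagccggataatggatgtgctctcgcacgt
lim-4 upstream, chrX:3873853-3874053, minus strand: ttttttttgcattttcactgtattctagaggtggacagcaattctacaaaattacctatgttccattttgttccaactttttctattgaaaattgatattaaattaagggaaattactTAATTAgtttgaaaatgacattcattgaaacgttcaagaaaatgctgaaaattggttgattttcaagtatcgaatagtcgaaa

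lim-6 occupies chromosome X, 1072452 to 1079452, on the plus strand, and has annotated 5′ ends at 1072452, 1073908 and 1074150. Its reproducible peak, at 1073813 to 1074236, lay over the 2 downstream starts, with the summit in the 5′ UTR 117 bp past the middle one. The pooled signal there was 127, with signals of 67.9 in replicate 1 and 62.4 in replicate 2. It ranked 165 in the pooled list, 136 in replicate 1 and 199 in replicate 2, so both libraries put it among the highest 0.718% of their regions. Its −log10 q-value, 2.625, is the highest in the pooled list and is shared by all 570 reproducible peaks. By the same value the lim-6 region of signal 61.7 had 2.002 and the other lim-6 regions 0.027 to 1.203. The paralogue regions had 0.035 to 0.718. Of the sequences printed, that of the peak holds neither core motif. The other annotated start of lim-6, at 1072452, had no pooled region over it. The nearest pooled summit to it was 485 bp downstream, in intron 1 of transcript K03E6.1b.2, with a signal of 21.5, close to the list's minimum of 20.5, and with no region in replicate 2. Replicate 1 had a pair of weak regions over it, with signals of 13.9 and 15.4.

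Introns of lim-6 held 4 of the pooled regions, and in 2 of them 1 library had no region. The region second in signal at this gene lay in intron 4 of transcript K03E6.1a.1, at 1076906 to 1077329, with a pooled signal of 61.7. Replicate 2 had a region of 55.1 over it, rank 284 of 27731, while replicate 1 had none that overlapped it. The sequence of this intron region holds a TAATGA. The neighbouring pooled region of the same intron was at 1077363 to 1077786. Its pooled signal was 22.3, and it met regions of 30.9 in replicate 1, with a summit 148 bp further downstream, and 18.7 in replicate 2, with a summit at -248 bp from the pooled one. The replicate 1 summit lay in a coding exon of lim-6. The replicate 2 summit, at 1077327, lay within the pooled region of 61.7, so the libraries were not compared at 1 site. In intron 3 of K03E6.1a.1 the pooled signal was 34.6, with 14.5 in replicate 1 and 20.1 in replicate 2. Where the 3′ UTR of K03E6.1a.1 lies, which is an intron of the other transcripts, a pooled region of 26.9 was overlapped by no region of either library.

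Regions at the edges of the lim-6 window lay nearer to other genes. The summit 3417 bp upstream, with a pooled signal of 40.5 and library signals of 24.7 and 13.6, was 94 bp past the 5′ end of mksr-1, which encodes a ciliary transition zone protein and is read from the opposite strand. A pair of overlapping regions followed, 2006 and 1804 bp upstream of lim-6, with pooled signals of 52.5 and 39.1. A single region of 30.6 in replicate 1 met both of them, and replicate 2 had a pair of overlapping regions of 19.8 and 19.2. Their summit windows were 33.9% and 28.7% unique, as the share of 31-mers within 100 bp that occur once in the genome, against 93.6% or more at the other lim-6 regions. The last region, 233 bp past the end of lim-6 in an intron of the profilin gene pfn-3, had a signal of 37.5, with 21.4 in replicate 1 and 12.7 in replicate 2. Replicate 2 also listed a region of 12.2 in a coding exon of mksr-1, which no pooled region overlapped. In all, the nearest protein-coding 5′ end belonged to another gene for 6 of the 10 pooled regions at lim-6 and for 2 of the 11 at its paralogues. The share over all gene windows was not counted, so these counts cannot be read as a trait of lim-6.

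Among the paralogues, ceh-14 (chromosome X, 7527769 to 7532732, minus strand) had the most pooled regions and the highest pooled signal. This was also so in replicate 2, but in replicate 1 lim-4, lim-7 and lin-11 had 4 regions like ceh-14, and the highest signal was 22.1 at lim-7, against 16.4 at ceh-14. Its top region, 1921 bp upstream at 7534441 to 7534864, had a pooled signal of 44.8 and a replicate 2 signal of 27.3, rank 2554, but no region in replicate 1. The summit lies in F46C8.15, an annotated noncoding RNA gene. Another ceh-14 region, 4321 bp upstream, had a signal of 35.9, with 16.4 and 17.7 in replicates 1 and 2, but its summit was in a coding exon of the cuticle collagen gene dpy-7. The others were at 29.2 in the 3′ UTR, with 14.3 and 15.2 in the libraries, and at 22.3, 762 bp upstream, with 14.9 in replicate 1 alone. All 4 lay far under the signal of the lim-6 peak, in the pooled list and in the libraries that listed them.

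lim-7 (chromosome I, 5716574 to 5725809) had 1 pooled region, in intron 7, 5826 bp into the gene. It was the second highest of the paralogue regions, at 41.9, and was matched closely in both libraries, 22.1 in replicate 1 and 20.1 in replicate 2. Its summit also lies in a noncoding RNA gene, C04F1.4. Replicate 1 listed 3 more regions at lim-7, with signals of 14.4, 17.9 and 17.5, that had no pooled counterpart.

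lim-4 (chromosome X, 3869404 to 3873545) had 3 regions round its start. The one 408 bp upstream, in intergenic sequence, had a pooled signal of 32.6, with 13.3 in replicate 1 and 18.5 in replicate 2. Another, in a coding exon 314 bp into the gene, had 24.8, and the last, in intron 3, had 23.3. Both were listed in replicate 1 only, at 20.4 and 16.6. lin-11 (chromosome I, 10248288 to 10255327) had a region at its 5′ end, with the summit 8 bp into the gene, at a pooled signal of 30.1 and 19.9 in replicate 1, with none in replicate 2. A region of 29.8 in intron 7 of lin-11 had 13.97 in replicate 1 and 16.99 in replicate 2.

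ttx-3 and mec-3 were nearly empty in the pooled and replicate 2 lists. In replicate 1, mec-3 exceeded 52.9% of genes in density and ttx-3 22.1%. At ttx-3 (chromosome X, 11764456 to 11769378) the 1 pooled region, of signal 29.5, lay 4897 bp from the 5′ end, where its 3′ UTR overlaps that of lact-7 on the other strand, and it was listed in replicate 1 (20.2) but not in replicate 2. At mec-3 (chromosome IV, 10458816 to 10461867) no pooled and no replicate 2 region was found. Replicate 1 had 2 weak regions upstream of mec-3, with signals of 12.6 and 15.0, against a list minimum of 12.6 and a median of 16.6.

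**Figure D2:**
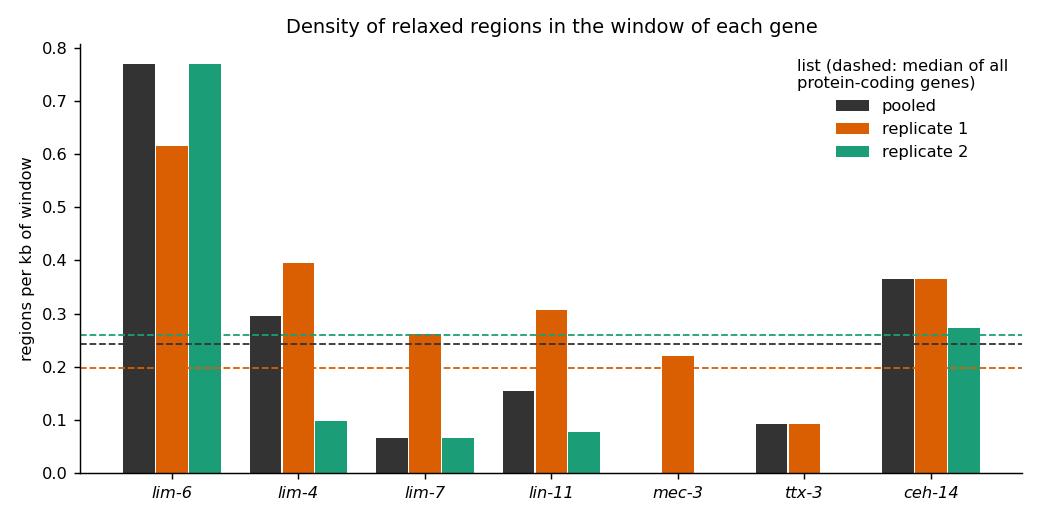
Regions per kb of window on the y axis for each gene on the x axis, with bars for the pooled, replicate 1 and replicate 2 lists and dashed lines at the median of all protein-coding genes in each list. lim-6 has 0.769, 0.615 and 0.769 regions per kb, and no paralogue passes 0.394.

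Each library taken alone also put lim-6 first. Replicate 1 had 8 regions at lim-6 and 19 over the 6 paralogues, or 0.615 against 0.274 per kb. Replicate 2 had 10 and 6, or 0.769 against 0.0865 per kb. The paralogues were thus closer to lim-6 in replicate 1 than in replicate 2, although the replicate 2 list is the longer one. In replicate 1 their single densities were 0.0916 (ttx-3) to 0.394 (lim-4) per kb, and 5 of the 6, all but ttx-3, lay above the median of 0.198 for all genes. In replicate 2 they were 0 (mec-3 and ttx-3) to 0.274 (ceh-14), and 5 of the 6, all but ceh-14, lay below the median of 0.260. Of the 19 replicate 1 regions at paralogues, 9 overlapped no pooled region, whereas all 6 of replicate 2 overlapped one. The share over all regions of each library was not counted, so these counts cannot be read as a trait of the paralogues.

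Pooled regions were overlapped by both libraries in 7 of 10 cases at lim-6 and 5 of 11 at the paralogues. The shares were 70.0% (exact Clopper-Pearson 95% interval 34.8 to 93.3%) at lim-6 and 45.5% (16.8 to 76.6%) at the paralogues, beside 46.5% of all pooled regions, and these intervals overlap. With summits required to lie within 100 bp, the share was 4 of 10 regions at lim-6, beside 25.9% of all pooled regions. The intervals cover counting error over regions only, which share their libraries. Where both libraries had a region, replicate 1 gave it the better rank in 6 of 7 cases at lim-6 and in 1 of 5 at the paralogues. By the rule of the highest overlapping signal, the pair of overlapping regions upstream of lim-6 has the same match in each library. In replicate 2 this rule passed over a region of 19.2 with its summit at 1070647. The pooled region 1804 bp upstream has its summit at 1070648. Distinct cases by this rule were 6 at lim-6, of which 5 ranked better in replicate 1. The direction over all pooled regions was not counted, so no contrast between lim-6 and the paralogues is drawn from these counts. The log2 ratio of signal, replicate 1 over replicate 2, was 0.12 at the reproducible peak of lim-6 and, at its other 6 such regions, -0.47 in intron 3 and 0.63 to 0.86 elsewhere. The overlapping pair shares its matches by the rule above, so its 0.63 is counted for both regions. In intron 4 the ratio was 0.72, but the library summits lay 148 and -248 bp from the pooled one. That value sets different sites side by side, and the region is also in the rank counts above. At the paralogues the ratio was -0.09 and -0.11 at ceh-14, 0.14 at lim-7, -0.28 at lin-11 and -0.48 at lim-4. Other ratios may also set different sites side by side. Summits in replicates 1 and 2 lay -15 and 200 bp from the pooled one in intron 3, and -177 and -211 bp at the region 1804 bp upstream. At ceh-14 they lay -167 and -8 bp away in the 3′ UTR and -1 and -107 bp at dpy-7, and at lim-4 -101 and 2 bp. The widest gap, 0.86, was at the 5′ end of mksr-1. These ratios take the library lists as they are, and a difference of scale between them was not tested.

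**Figure D3:**
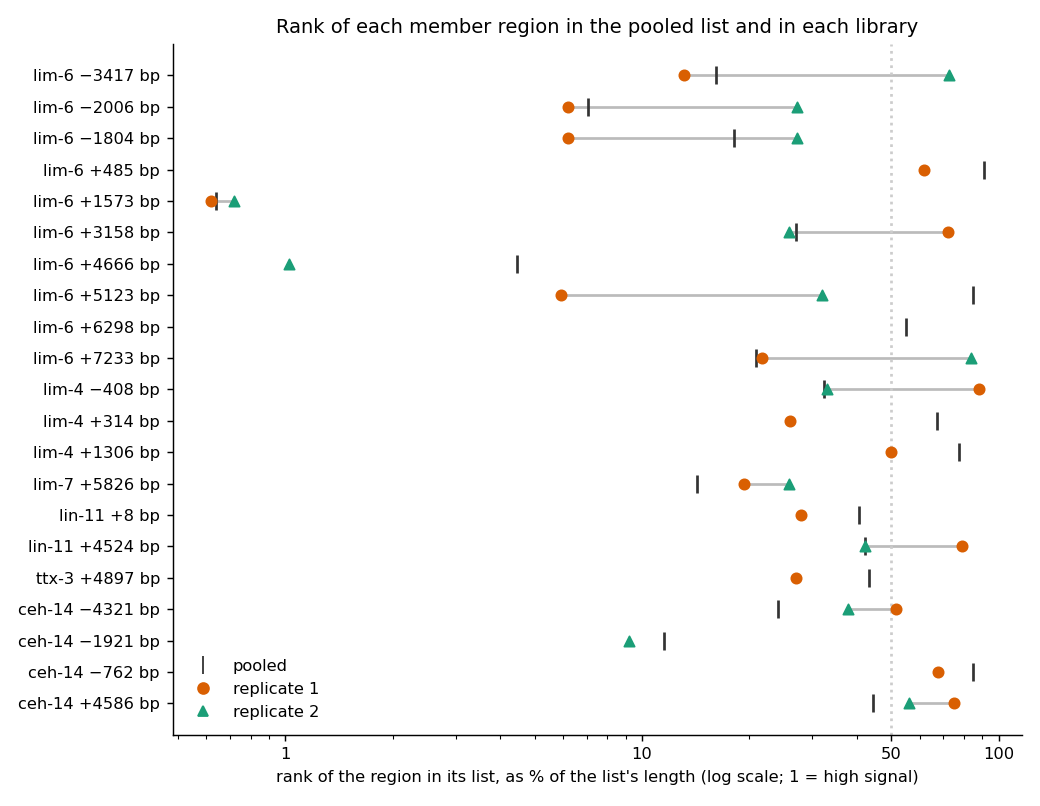
Rank of each of the 21 pooled regions as a percentage of its list's length on a log x axis, by gene and distance of the summit from the gene's 5′ end on the y axis. Bars are the pooled list, circles replicate 1 and triangles replicate 2, and a missing symbol means that no region of that library overlapped. Both libraries stand together at the lim-6 region at +1573 bp (0.620 and 0.718%), and a single triangle stands at 1.02% for the region at +4666 bp.

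Counts in 10 kb bins showed how far the excess at lim-6 reached. Within 20 kb of the 5′ end on either side there were 24 pooled regions at lim-6, against 6 at lim-4, 3 at lim-7, 8 at lin-11, 2 at mec-3, 6 at ttx-3 and 9 at ceh-14. The median over all genes was 9. From 20 to 50 kb the same count was 16 at lim-6 and 7 to 22 at the paralogues, so there lim-6 lay inside their range. Upstream of lim-6 the bins between 20 and 0 kb had 7 and 6 regions, the bin downstream of the start had 8, and the next ones on either side had 2 and 3. Both libraries followed this pattern, with 22 and 25 regions within 20 kb of lim-6 in replicates 1 and 2, against 4 to 11 and 2 to 9 at the paralogues. The 4 reproducible peaks in that stretch include the peak at lim-6 itself. Of the paralogues, lim-7, lin-11 and ttx-3 had 1 each, at 9.61 kb upstream, 15.5 kb upstream and 11.5 kb downstream of the 5′ end, and outside their windows. The nearest to mec-3 was 20.1 kb away, to ceh-14 119 kb and to lim-4 252 kb. Whether extra copies of the lim-6 region in the transgene add to its count was not tested.

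**Figure D4:**
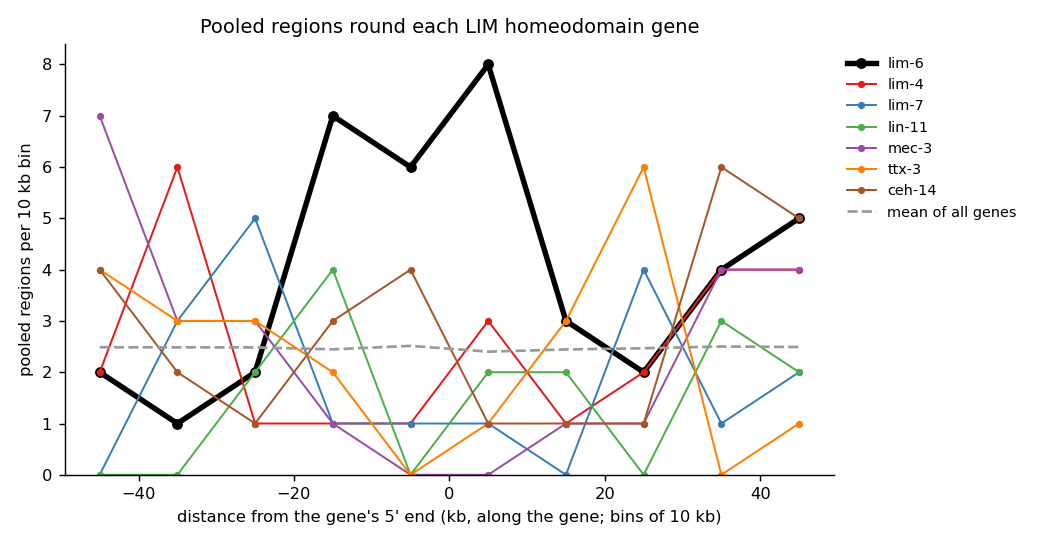
Pooled regions per 10 kb bin on the y axis against distance from the 5′ end of each gene in kb on the x axis, one line per gene, with the mean of all protein-coding genes dashed. The thick lim-6 line stands at 6 to 8 between 20 kb upstream and 10 kb downstream, where no paralogue passes 4.

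Sequence at the summits was described last. TAATTA occurred within 100 bp of the summit in 1 of 10 regions at lim-6 and in 2 of 11 at the paralogues, together 14.3%, beside 7.58% of all pooled regions. Anywhere in the region it was in 19.1% of the 21, beside 15.7% of all. The regions with a TAATTA within 100 bp were the one 2006 bp upstream of lim-6, the one 408 bp upstream of lim-4 and that in the intron of lim-7. There the motif was 62, 21 and 15 bp from the summit. The related TAATGA was within 100 bp of the summit in 2 of 10 and 3 of 11 regions, together 23.8%, beside 9.08%. Of these 5, the lim-6 intron region of signal 61.7 and the top ceh-14 region were listed in replicate 2 alone. The lim-4 intron region and the ceh-14 region 762 bp upstream were listed in replicate 1 alone, and the one past the end of lim-6 in both. At the same distance GAGAGA was in 2 and 3 regions, 23.8% beside 17.6%, and the longer TTAATTAA was in none, beside 1.31% of all regions. Further out, the top ceh-14 region held a TTAATTAA, whose TAATTA was 147 bp from the summit. The reproducible peak of lim-6 had none of these 4 motifs within 100 bp of its summit. Its GC content, 51.7%, was the highest of the lim-6 regions, whose median was 37.8%, and the paralogue regions had a median of 42.8% beside 41.3% for all regions. These shares rest on 21 regions and are given as a description.

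ldb-1, which encodes the cofactor that LIM domains bind, carried a reproducible peak. It lay on chromosome X at 11031190 to 11031613, outside annotated exons, 2485 bp into the gene and 1704 bp from an annotated 5′ end of ldb-1. The pooled signal was 98.2, rank 313, with 42.2 in replicate 1 and 56.3 in replicate 2, and the window held 13 pooled regions, 0.735 per kb. It was the 1 gene with a reproducible peak, 4.35%, among 23 cofactors, partners and known targets of LIM homeodomain proteins, beside the 6.38% of all genes. The partner genes unc-86 and ceh-10 had highest signals of 34.3 and 31.8, the GABA genes unc-25 and unc-47 had 68.5 and 46.2, and unc-46, also a GABA gene, had no pooled region, nor had gcy-7, hen-1 and mec-18. Of 12 genes with LIM domains but no homeodomain, 0 had a reproducible peak, and 11 had a pooled region. The highest signal there was 72.6 at unc-97, the PINCH ortholog of muscle attachments. Median pooled density was 0.266 per kb for these 12 genes and 0.239 for the 23, near the 0.243 of all genes.

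By number of pooled regions, number of reproducible peaks and highest signal, ranked over all protein-coding genes, the genes nearest to lim-6 were mix-1, dpy-21 and elpc-2. Each had 10 pooled regions and 1 reproducible peak, like lim-6. Their highest signals were 124, 123 and 119, at Euclidean distances of 0.0012, 0.0021 and 0.0040 over the 3 percentile ranks. Their windows are longer, 23.2, 18.9 and 18.6 kb. Of the 1275 genes with a reproducible peak, 53, lim-6 included, had 10 or more pooled regions.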

How the data were processed

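Per the labels, whole embryos of 1 group gave 2 biological replicates. The authors deposited region lists in ce10 and ce11, in which each region has a signal value and a −log10 q-value. Per the deposited notes, the relaxed lists of peaks and background were made from alignments with a control, per library and pooled, and the reproducible list passed the authors' irreproducible discovery rate (IDR) threshold. The signal was taken, from the file layout, as the caller's enrichment, and is not on 1 scale between pooled and library lists. The sources used here do not give aligner, caller or depth. The ce11 lists were set against WBcel235 (Ensembl release 115), and the ce10 lists were not used. Members and gene lists were chosen with earlier results of these data known. A region counted when at least 1 bp overlapped the window. A library match was the overlapping region of highest signal. Motifs were searched on both strands, and TTAATTAA contains TAATTA. Uniqueness was the share of 31-mers within 100 bp of a summit that occur once in the genome. Nothing was tested, since 1 group and 2 libraries give no contrast. Named genes were the 7 members, genes with the 5′ end nearest to a member region, the 3 genes most like lim-6, and listed genes with a reproducible peak. unc-86, ceh-10, unc-25, unc-47, gcy-7, hen-1, mec-18, unc-46, unc-97 and lact-7 were named after their values were seen, as were the 2 noncoding RNA genes. Python 3.11.15, pandas 2.3.3 and numpy 2.4.6 were used, and the counting was tested on simulated data. Alternatives varied the window, overlap rule, library, uniqueness and signal minimum.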

Additional observations from a re-analysis of the deposited data

How the results depend on the processing

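lim-6 had the highest number and density of regions of the 7 genes in the pooled and both library lists. Its 10 pooled regions became 6 in a window from 1 kb upstream to the gene end and 4 with a signal of at least 0.5 of that of the weakest reproducible peak, and were 8 to 15 under the 6 other settings. The 11 paralogue regions became 2 with that signal minimum and 6 to 19 with 1 library left out (6 without replicate 1, 19 without replicate 2), and the cause was not tested. A window of 10 kb upstream to 5 kb past the end gave 2 members with a reproducible peak, lim-6 and lim-7. The share of member regions found in both libraries, 57.1%, was 28.6% when summits had to lie within 100 bp, a stricter rule by construction, which also gave 4 of 10 regions at lim-6, against 7 as reported, and 25.9% for all pooled regions. With 1 library left out, the highest region ranked within the first 0.620 to 0.718% of the list at lim-6, 25.9 to 33.0% at lim-4, 19.3 to 25.8% at lim-7, 28.0 to 42.2% at lin-11, 9.21 to 51.4% at ceh-14 and 27.1% at ttx-3, where replicate 2 gave no value. At mec-3 the pooled list gave none. Of the 40 values, 26 moved less than the limits used. These were 1.5-fold for counts, the 95% counting interval for shares, which at lim-6 is wide, and the standard deviation between libraries for ranks. For ttx-3, with no replicate 2 value, there was no such deviation, and its rank was counted as moved. The rank limit is loose at ceh-14, where the libraries differed most, 9.21 against 51.4%, and tight at lim-6. Read depth could not be weighed, and no paired analysis was possible because there is 1 group.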
